A study of Mus musculus with 2 samples.

Results

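The transcripts described here encode 9 mitochondrial enzymes or enzyme subunits of pyruvate oxidation: Pdha1, Pdhb and Dlat of the pyruvate dehydrogenase complex, and Cs, Idh3a, Ogdh, Dlst, Fh1 and Mdh2 of the tricarboxylic acid (TCA) cycle. They were measured in unfertilised oocytes of C57BL/6 mice, either MUL1 +/+ (wild type, a pool of 213 oocytes) or MUL1 -/- (knockout, a pool of 123 oocytes). Mul1 encodes a ubiquitin ligase that sits in the outer membrane of mitochondria, and the question named in the title is how its loss bears on reactive oxygen species in oocytes and on early embryos. The labels give neither the deleted part of Mul1 nor the age of the animals, and name no Cre line or treatment. Each pool was hybridised to 1 single-colour Agilent array, so 1 array stands for each genotype and no difference below has a replicate check or a test, the precision being limited by that number. The genes were taken by name, as all probes whose gene name on the array was one of the 9, which gave 19 probes among 56600. The names on the arrays covered 37074 genes or loci in all.

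Fully grown oocytes take up little glucose and depend on pyruvate, which the surrounding cumulus cells supply. Pyruvate enters the mitochondrion, where the pyruvate dehydrogenase complex turns it into acetyl-CoA through its E1 (Pdha1 with Pdhb), E2 (Dlat) and E3 (Dld) components. The TCA cycle then oxidises the acetyl group and yields the NADH that drives the respiratory chain. Citrate synthase (Cs) makes the first step, and the 2-oxoglutarate dehydrogenase complex, whose E1 is Ogdh and E2 is Dlst, is built like the pyruvate complex and shares its E3.

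A probe is an oligonucleotide of 60 bases printed on the array, and the probes of a gene can lie in different transcripts of it. Of the 19 probes, 12 were designed on RefSeq mRNAs (accessions that start with NM) and each of these accessions named the same gene in a RefSeq table of mouse genes. The other 7 were designed on single cDNA clones (accessions that start with AK) or an Ensembl transcript. This division matters for the values below, so stretches of 30 bases are printed for the 3 genes whose probes spread most, read 5′ to 3′ on the strand of the transcript, with positions on mouse build mm9 as the files give them. Capitals mark the hexamer AATAAA, the usual polyadenylation signal, where a probe holds it, and in all other probes the stretch is the first 30 bases.
Pdha1 NM_008810, chrX:156560603-156560632, minus strand: gctgtgacataggaaagataggggagagct
Pdha1 ENSMUST00000127535, chrX:156574873-156574902, minus strand: ggctgggcatgaAATAAAattgaaaacgaa
Pdhb NM_024221, chr14:8998578-8998607, minus strand: gaatgcccccacagaaggtaacttatatgt
Pdhb AK011810, chr14:8997650-8997679, minus strand: taacactacactttgttctcttctgaaata
Pdhb AK084507, chr14:9003635-9003664, minus strand: gtgcagctatggtatgtaatatttatggag
Dlst NM_030225, chr12:86474939-86474968, plus strand: gcagcatgtgctactacatctacaccattc
Dlst AK171100, chr12:86454644-86454673, plus strand: tcaagtattctggttaggctagtcaccaac
Dlst AK005477, chr12:86472691-86472720, plus strand: ctgagacttctgtgtctagaatatatctgg
Dlst AK019713, chr12:86475729-86475758, plus strand: aggggaattcagtgaattatgtaccaggtc
Searched over the whole 60 bases, AATAAA was in 2 of the 19 probes, the Ensembl probe of Pdha1 and the Fh1 probe, and in 9.77% of all 56600 probes. Its reverse complement TTTATT was in 2 of the 19, at Idh3a and at an Ogdh probe, and in 3.85% of all. The G and C content of the 19 probes ran from 35% to 48.3%, with a median of 38.3%, against a median of 41.7% over all probes. Exon and UTR annotation of mm9 was not used here, so whether a probe lies in coding sequence, a UTR or an intron is not given.

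A difference here is the log2 signal for knockout minus that for wild type, each taken relative to the 75th percentile of its own array, and 1.5-fold equals 0.58. Of Mul1, the deleted gene, the RefSeq probe read 3353 for wild type and 1074 for knockout, a difference of -1.61, and the dim Ensembl probe 0.29 at signals of 19.3 and 23.1. The labels do not say whether either lies in the deleted part. The labelled cell type was present, since 11 of 12 oocyte markers were well above background on both arrays. Figla was so on 1 array alone, and Gdf9 read 68126 for wild type and 61515 for knockout. The 11 oocyte markers ran from -0.21 to 0.77 with a median of 0.16, 6 above 0 and 5 below. Of them 1, Nlrp5, was at least 1.5-fold higher on the knockout array and none 1.5-fold lower. The housekeeping genes gave values from -0.05 to 0.12 at the probes of Gapdh and 0.00 at that of Actb. Markers of other cells were on both arrays too and differed between them. All 12 cumulus and granulosa markers were measured, with 3 at least 1.5-fold higher and 2 lower on the knockout array, and a summed level of 227 for wild type and 244 for knockout in units of each array's 75th percentile. The summed level of 11 myeloid markers was 41.7 and 108, that of the red cell markers 108 and 35.01, and that of oviduct and endothelial markers 32.9 and 91.0. Most of this last sum was Ovgp1, the oviduct glycoprotein gene, at signals of 24266 and 69104, while the endothelial genes Kdr, Pecam1 and Cdh5 had differences of 1.13, -0.04 and 0.10. Of the 7 markers in that list, 5 were at least 1.5-fold higher on the knockout array, and the median of the 7 was 0.76. All 11 myeloid markers were at least 1.5-fold higher and all 5 measured red cell markers at least 1.5-fold lower on the knockout array, where 7.84% and 5.2% of all gene names were so. The level summed over all 19 probes of the 9 enzyme genes was 232 and 238. The marker sums likewise took in every probe of each gene. The part of these cells in the values of the enzyme genes was not tested.

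On both arrays the 9 genes were expressed, and 18 of their 19 probes were well above background on both. All 12 RefSeq probes were brighter than the median measured probe, whose signal was 390, with signals from 1018 to 64665 for wild type and from 994 to 64314 for knockout. The 6 other measured probes had signals from 15.9 to 1035 for wild type and from 26.3 to 797 for knockout, and 2 of them lay above that median. Signals of different probes depend on the probe as well as on the transcript, so they are not ranked against each other. The arrays also hold transcripts of other cells, and fewer cells of a type cannot be told apart from less RNA per cell in such pools.

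**Figure D1:**
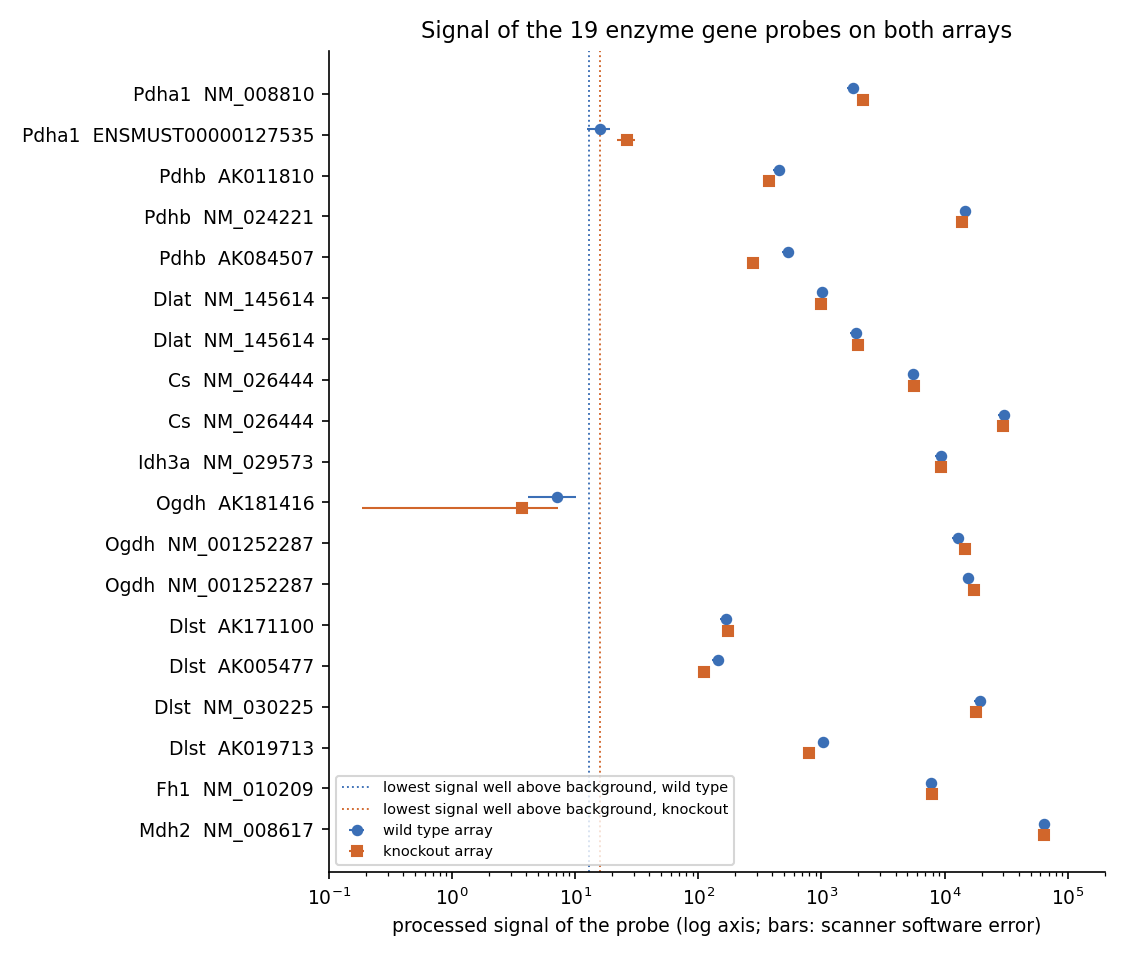
Processed signal (log axis) of each of the 19 probes on the wild-type array (circles) and the knockout array (squares), with bars for the scanner software's error and dotted lines at the lowest signal that passed as well above background, 12.9 for wild type and 15.8 for knockout. The RefSeq probes of each gene lie far above these lines on both arrays, and the Ogdh probe for AK181416 lies below them.

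No gene of the 9 differed by 1.5-fold or more between the arrays when its measured probes were averaged. Of all 22921 gene names measured, 13.0% were at least 1.5-fold apart and 4.29% at least 2-fold, and of those with a mean signal above the median, to which 8 of the 9 genes belong, 5.96% were at least 1.5-fold apart. The median of the 9 was 0.04, beside 0.03 over all gene names, with 7 above 0 and 2 below. Dlat, Cs, Idh3a, Fh1 and Mdh2 lay within 0.1 of 0, as 30.1% of all gene names did. That share takes in dim gene names, and it was not computed for those above the median signal alone. The remaining genes were Pdha1 at 0.53, Ogdh at 0.20, Dlst at -0.17 and Pdhb at -0.41.

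The TCA cycle genes Mdh2, Cs, Idh3a and Fh1, each with a single probe or with probes in the same transcript, gave nearly equal signals on the arrays. Mdh2, the mitochondrial malate dehydrogenase, read 64665 for wild type and 64314 for knockout, a difference of 0.02 after scaling. Its probe, for NM_008617, lies at chr5:136266157-136266216. Cs, which condenses acetyl-CoA with oxaloacetate, had a probe at 5570 and 5614 and a second probe, 1225 bases away in the genome, at 30256 and 30094. These probes, at chr10:127798143-127798202 and chr10:127799428-127799487, gave differences of 0.04 and 0.02. Idh3a, the catalytic subunit of NAD-dependent isocitrate dehydrogenase, read 9376 and 9438 at chr9:54451368-54451427, a difference of 0.04. Fh1, the fumarate hydratase that makes malate, read 7827 and 7942 at chr1:177531530-177531589, a difference of 0.05. For each of these probes the error of the difference that follows from the scanner software's signal errors was 0.20. It is the software's estimate, nearly a fixed share of signal at bright probes, and covers no biological spread. All 5 differences were smaller than this software error, which is not a spread measured between spots. Measured at 296 probes printed at 10 spots, the median SD of the difference was 0.04.

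Ogdh, the E1 of the 2-oxoglutarate dehydrogenase complex, was the TCA gene with the highest value. Its RefSeq probes for NM_001252287 read 12826 and 15619 for wild type and 14542 and 17473 for knockout. The differences of 0.21 and 0.19 correspond to 1.16-fold and 1.14-fold higher signals on the knockout array, each about as large as its error of 0.20. These probes lie 12 bases apart in the same transcript, at chr11:6256511-6256570 and chr11:6256583-6256642, and are not independent of each other. Another Ogdh probe, for the clone AK181416, read 7.13 and 3.71, was not well above background on either array and has no usable difference. Where it is averaged in all the same, the gene value becomes -0.17, so the sign of the Ogdh average rests on leaving this probe out. In 10 of the 11 other settings described below, the value of Ogdh stayed above 0.

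Dlst, the E2 of that complex, carried 4 measured probes with different values. The RefSeq probe for NM_030225 read 19375 for wild type and 18095 for knockout, a difference of -0.07. The probe for the clone AK019713, which lies 730 bases beyond it in the genome, read 1035 and 797, a difference of -0.34. The probe for AK005477 read 144 and 112, again -0.34, and that for AK171100, farthest upstream, 167 and 173, or 0.08. The gene average of -0.17 thus lies between the RefSeq probe and its lower clone probes, and no Dlst probe reached 1.5-fold. The probes spanned 0.42, beside a median span of 0.52 for the 655 genes with 4 measured probes. On the scale of the spike-in controls the RefSeq probe read 0.08, on the other side of 0.

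By the average over measured probes, the pyruvate dehydrogenase complex held both extremes of the 9 genes, and they were the E1 subunits. The lower extreme depended on the probes used. With RefSeq probes alone, or the brightest probe of each gene, Dlst was lowest at -0.07, beside Pdhb at -0.06. Dlat, the E2 core that carries the lipoyl groups, read 1018 and 994 at one RefSeq probe and 1911 and 1991 at another 2608 bases away, differences of 0.00 and 0.09. They lie at chr9:50442953-50443012 and chr9:50445621-50445680. Its first probe changes sign with the scaling, from just below 0 to 0.14 on the spike-in scale. Pdha1, the E1 alpha subunit that is encoded on the X chromosome and holds the phosphorylation sites that switch the complex off, read 1796 for wild type and 2161 for knockout at its RefSeq probe. That is a difference of 0.30 with an error of 0.20, or 1.23-fold, and the highest value among the 12 RefSeq probes. Its Ensembl probe, 14213 bases away, read 15.9 and 26.3, a difference of 0.76 with an error of 0.39, at 1.23 and 1.66 times the lowest signal that passed as above background. With normexp background correction the difference of this dim probe was 0.18. That setting adds an offset of 50 to every signal, which is above both signals of this probe. A smaller difference there was thus built in and is no check on background. The average of 0.53 for Pdha1 weights both probes equally, and without the dim one it is 0.30.

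Pdhb, the E1 beta subunit that pairs with Pdha1, had the probes that disagreed most. The RefSeq probe for NM_024221 read 14753 for wild type and 13850 for knockout, a difference of -0.06 with an error of 0.20. The probe for AK011810, 868 bases past it on the minus strand, read 451 and 372, a difference of -0.24. The probe for AK084507, on the other side at a distance of 4997 bases, read 536 and 276, a difference of -0.92 or a 1.90-fold lower signal. This last difference divided by its software error was -4.51, and no other measured probe of the 9 genes exceeded 2 such errors. It was between -0.93 and -0.78 in all 6 other scalings, background corrections and value sources tried, whereas the RefSeq probe ran from -0.07 to 0.08 and turned above 0 on the spike-in scale. The probes of Pdhb span 0.86, more than 1.5-fold, which is so for 27.3% of the 1949 genes with 3 measured probes, where the median span is 0.36. The gene average of -0.41 becomes -0.06 when the 2 clone probes are left out.

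**Figure D2:**
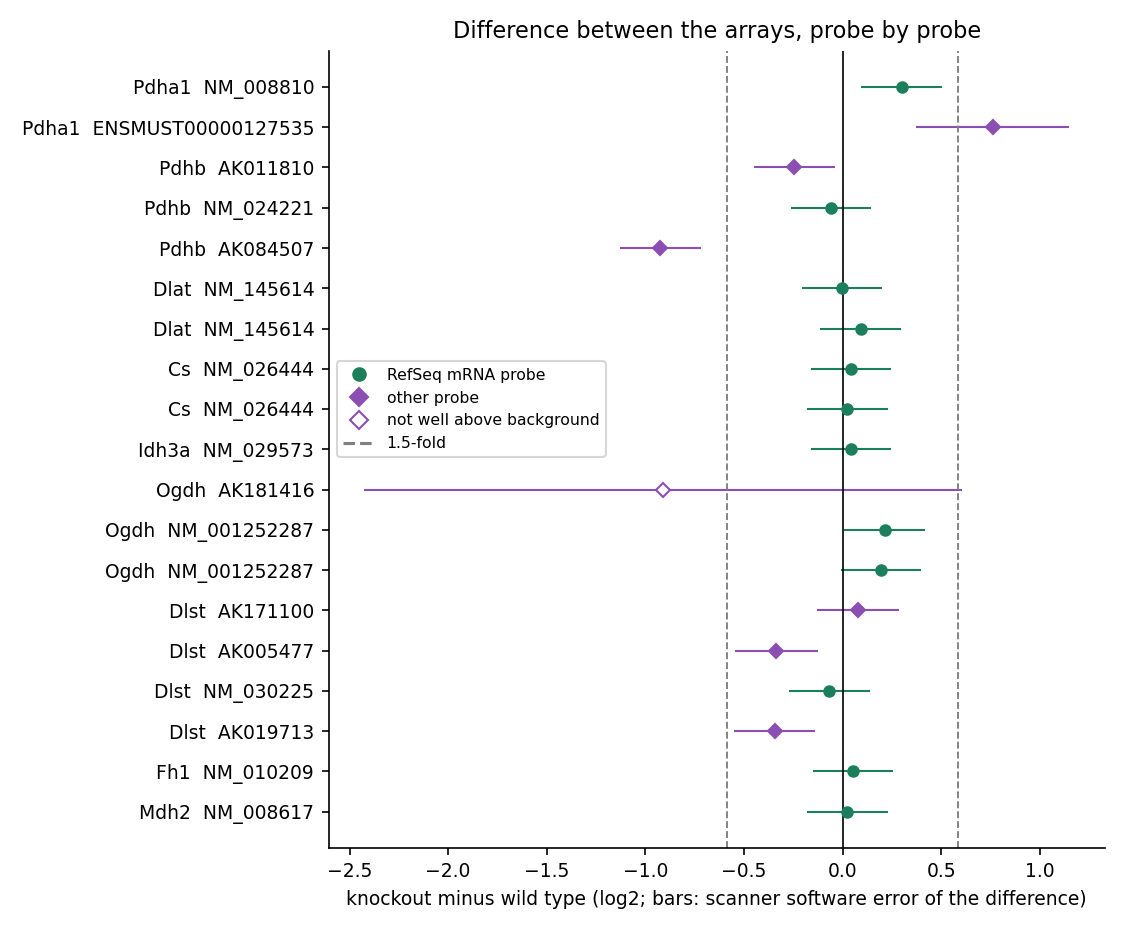
Difference between the arrays (knockout minus wild type, log2) for each of the 19 probes, with bars for the error that follows from the scanner software's signal errors and dashed lines at 1.5-fold. RefSeq probes (circles) lie between -0.07 and 0.30, the other probes (diamonds) between -0.92 and 0.76, and the open diamond is the Ogdh probe that was not well above background.

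By kind of probe, the 12 RefSeq probes of the 9 genes had a median difference of 0.04 and ran from -0.07 to 0.30, with 9 above 0 and none 1.5-fold apart. Over all 14021 RefSeq probes brighter than the median measured probe, 4.97% were 1.5-fold apart. The 6 other measured probes had a median of -0.29, with 4 below 0 and 2 at least 1.5-fold apart, the Ensembl probe of Pdha1 upwards and the AK084507 probe of Pdhb downwards. Across all 12795 measured probes that are not on RefSeq mRNAs, 19.7% were 1.5-fold apart, against 10.4% of the 22460 RefSeq probes. By direction, 7.84% of the other probes were 1.5-fold higher and 11.9% 1.5-fold lower for knockout. Among 3483 genes measured by both kinds, the difference of the other probes minus that of the RefSeq probes had a median of -0.07 and was below 0 in 58.2%, and their signal was a median 0.143 times that of the RefSeq probes. Of the 5 clone probes of Pdhb and Dlst, 4 lay below the RefSeq probe of their gene. Between the E1 subunits, the gap of 0.94 between the gene averages of Pdha1 and Pdhb was 0.36 between their RefSeq probes.

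**Figure D3:**
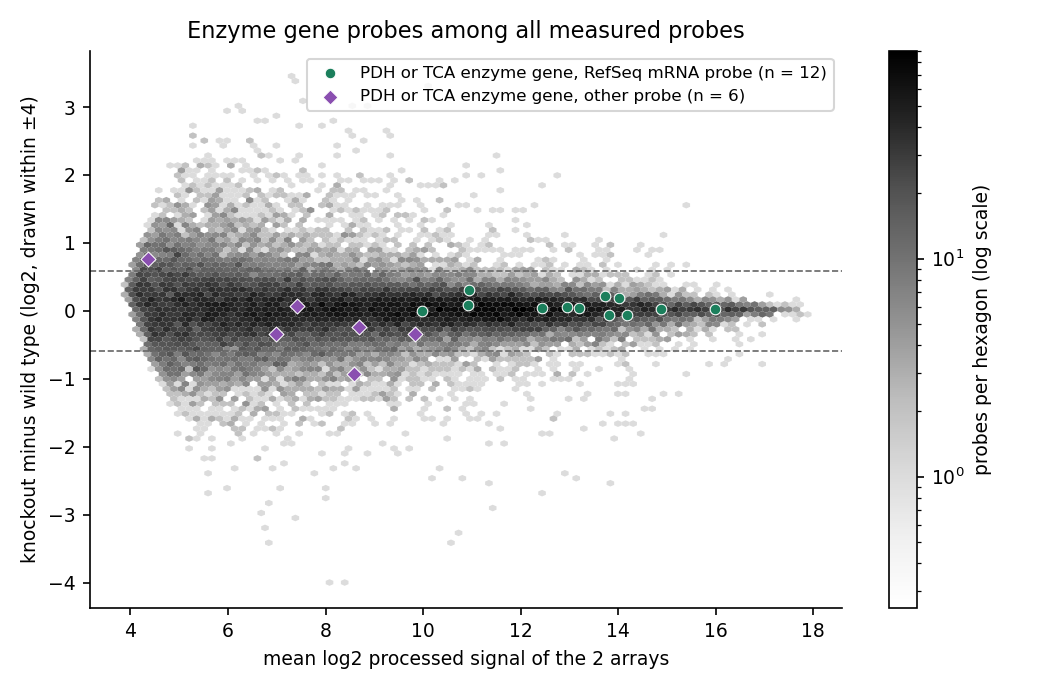
Difference between the arrays against mean log2 signal for all measured probes (grey hexagons, darker where more probes lie) with the RefSeq probes (circles) and other probes (diamonds) of the 9 enzyme genes, and dashed lines at 1.5-fold. The spread of all probes is wide at low signal and narrow at high signal, and the circles lie in the bright, narrow part.

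The rest of the pathway was described from 5 lists of 58 genes, of which 57 were measured. At least 1.5-fold differences were seen for 2 of the 57, both higher on the knockout array, where 7.84% of all gene names were 1.5-fold higher and 5.2% 1.5-fold lower. Their median was 0.02. The subunits and regulators of pyruvate dehydrogenase had a median of 0.02, with none of 9 measured 1.5-fold apart. Dld, the shared E3, read 6514 for wild type and 6181 for knockout, a difference of -0.04. Pdk3 at 0.30 and Pdk1 at 0.24, kinases that inactivate the complex by phosphorylating Pdha1, were highest, and the brightest of 5 Pdk1 probes lay at -0.14 and its Ensembl probe at 0.90. Pdp1 at -0.23, a phosphatase that reactivates the complex, and Pdhx at -0.15, which anchors the E3, were lowest. Pdha2, the E1 alpha gene of spermatogenic cells, read 4.55 and 4.94 and was well above background on neither array.

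Of the other TCA cycle enzymes, all 10 were measured, none was 1.5-fold apart, and the median was 0.08. Sdhc, a membrane anchor of succinate dehydrogenase, was at 0.19. Suclg2 at -0.20, the GTP-specific subunit of succinyl-CoA ligase, and Sucla2 at -0.06, its ATP-specific counterpart, were lowest. Sdha had a clone probe that was 1.5-fold lower, at -0.61 with signals of 87.9 and 56.1. Its RefSeq probes lay at 0.10 and 0.17 and its Ensembl probe at 0.15.

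The genes for transport and supply of pyruvate ran from -0.46 to 0.65 over 10 measured genes, with a median of 0.03. The lactate dehydrogenase gene Ldhb, whose product favours the making of pyruvate from lactate, read 17443 and 2568 on the wild-type array at its probes and 23630 and 3693 on the knockout array, differences of 0.47 and 0.56. Both of its bright probes thus pointed the same way, 1.39-fold and 1.47-fold higher on the knockout array. Slc16a7, a pyruvate and lactate transporter, was at 0.65 but dim, with probes from 0.29 to 1.07 and mean signals of 16.8 and 25.7. The related transporter gene Slc16a1 was lowest at -0.46, and Mpc2 of the mitochondrial pyruvate carrier at -0.33, with its RefSeq probe at -0.26.

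Enzymes that feed or drain the cycle, and cytosolic or NADP-dependent counterparts, had a median of -0.07 over 13 genes. The gene beyond 2-fold was Me3, a mitochondrial NADP-dependent malic enzyme, at 1.22, where 2.92% of all gene names were at least 2-fold higher. Its RefSeq probe lay at 0.26, with signals of 411 and 483, and its Ensembl probe at 2.17, with signals of 21.1 and 92.5. Me2, the NAD-dependent malic enzyme, was next at 0.20. Mdh1, the cytosolic counterpart of Mdh2, was lowest at -0.36, which came from a clone probe at -1.07 beside RefSeq probes at -0.04 and 0.04. The genes for lipoate synthesis and attachment, iron-sulfur assembly and thiamine supply, on which Dlat, Dlst, Pdha1 and Ogdh depend for cofactors, had a median of 0.02 over 15, with none 1.5-fold apart. The lipoyl synthase gene Lias was highest at 0.30, with an Ensembl probe at 0.70 and its brightest probe at 0.00, followed by Lipt2 at 0.27, and Isca1 at -0.18 and Lipt1 at -0.18 were lowest.

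**Figure D4:**
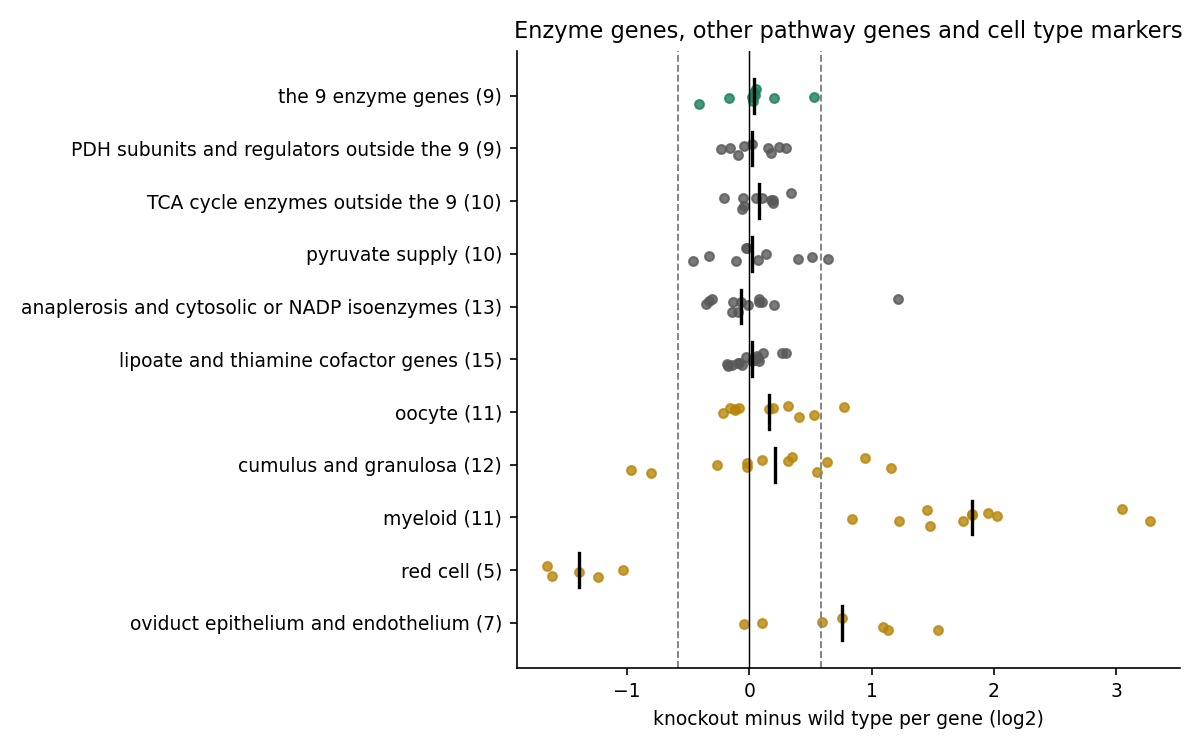
Difference per gene (knockout minus wild type, log2) for the 9 enzyme genes, the 5 lists of other pathway genes and 5 lists of cell type markers, with the number of measured genes in brackets, vertical bars at each median and dashed lines at 1.5-fold. The 9 enzyme genes lie between -0.41 and 0.53, while the myeloid markers have a median of 1.82 and the red cell markers one of -1.39.

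Gene values of Dlat, Cs, Idh3a, Fh1 and Mdh2 stayed between 0.01 and 0.19 under 11 other settings, and the upper end came from scaling on spike-in controls, which also raised the median of all gene names from 0.03 to 0.17 and the share of 1.5-fold gene names that were higher for knockout from 60.1% to 77.9%. Relative to the median of all gene names in the same setting, these 5 lay between -0.09 and 0.07. On the spike-in scale Pdha1, at 0.67, passed 1.5-fold, and in no other setting did a gene of the 9 do so. The value of Pdha1 was 0.23 with normexp, whose offset shrinks differences at dim probes by construction. With RefSeq probes alone Pdhb was at -0.06 and Pdha1 at 0.30.

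**Figure D5:**
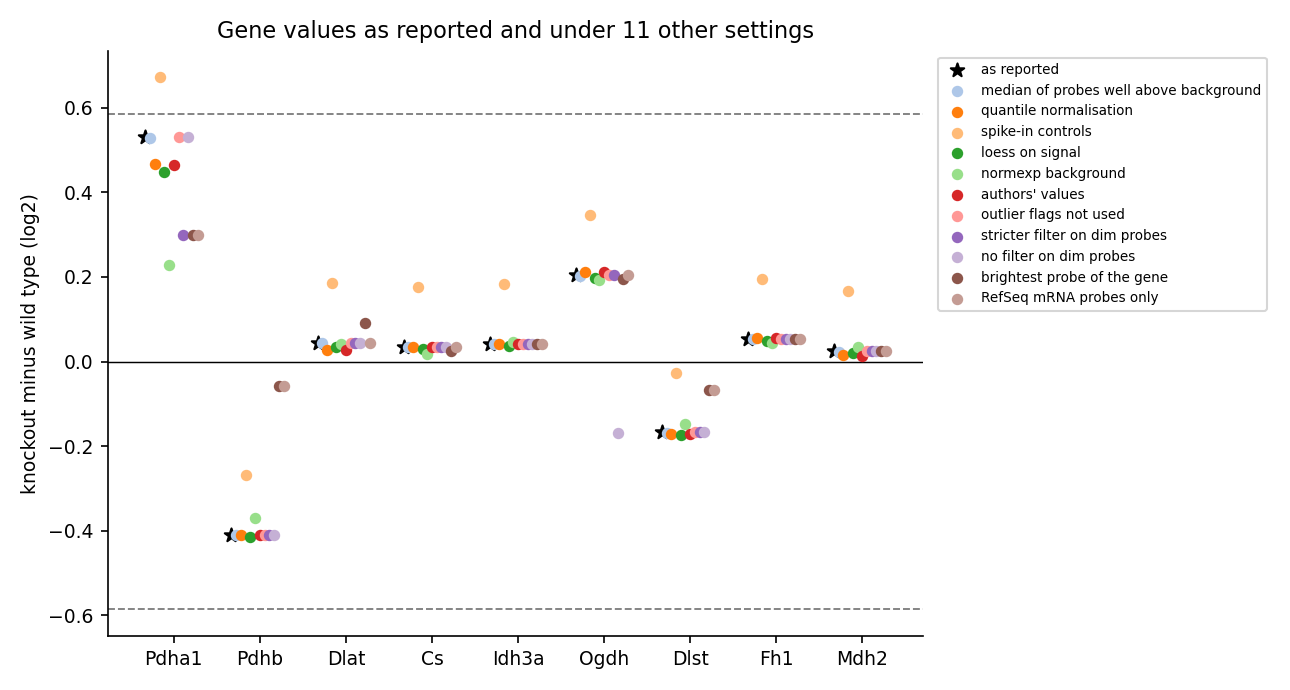
Difference of each of the 9 genes (knockout minus wild type, log2) as reported (star) and under 11 other settings (dots), with dashed lines at 1.5-fold. Values of Cs, Idh3a, Fh1 and Mdh2 cluster near 0 apart from the spike-in scale, Pdha1 and Pdhb move with the choice of probes, and Ogdh changes sign without the filter on dim probes.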

How the data were processed

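Per array, the deposited file lists linear intensity for each spot, as written by Agilent Feature Extraction 10.7.1.1 for array design 074809 per the file headers (9.5.1.1 in the submitters' processing notes). Per the file headers the processed intensity was corrected for spatial trends within each array. The authors' deposited table of intensity holds 56605 probes, and its columns, once sorted, are equal within 0.0243%, as quantile normalisation leaves them. Its differences followed those used here with r = 0.997 across measured probes.

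Spots flagged as outliers were left out (88 and 84), log2 intensity was averaged over spots of a probe, and each array's 75th percentile (signals of 808 and 790) was subtracted. A gene's value is the mean over its probes well above background on both arrays. No spot was saturated. For 296 probes printed at 10 spots, the median SD of the difference over spots was 0.04. Only the step that averages probes into gene values was tested on simulated data. Python 3.11.15, statsmodels 0.14.6 and limma 3.58.1 were used.

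The 9 genes and the lists were chosen with earlier results of these data known. Named are the 9 genes, and of each pathway list the 2 highest, the 2 lowest and those 1.5-fold apart. Mul1, Gapdh and Actb served as checks. Dld, Pdha2 and Sdha, outside this rule, were chosen after their values were seen. Some genes that this rule or the marker lists hold are not reported here.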

Additional observations from a re-analysis of the deposited data

How the results depend on the processing

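With 1 array per genotype no replicate could be left out. No paired analysis was possible because each group holds 1 array, and its number 1 only names it. The 10 planned settings were run, and RefSeq probes alone was added after seeing the data. The count of the 9 genes at least 1.5-fold apart was 0, and 1 (Pdha1) on the spike-in scale (7 control probes). Their median of 0.04 became 0.18 on that scale, and the median of the other pathway genes 0.16, with 3 at least 1.5-fold apart. The count of other pathway genes at least 1.5-fold apart was 2 as reported, 1 with quantile normalisation, loess on signal (span 0.3), the authors' values or no filter on dim probes, and 0 with normexp (offset 50), a dim-probe filter set 4 times higher, the brightest probe of each gene or RefSeq probes alone. Their median was 0.02 as reported and -0.025 with loess. The share of 1.5-fold calls that were higher on the knockout array was 60.1% as reported, 77.9% on the spike-in scale and 73.5% with RefSeq probes alone, and the share of all gene names called was 5.25% with normexp, 8.97% with the stricter filter and 23.3% with none. Added to every signal, the normexp offset shrinks differences at dim probes by construction, so its lower counts are no check on background. Dim probes, such as the Ensembl probe of Pdha1, have the least signal over background and the least certain differences.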
